A study of Mus musculus with 8 samples.

Results

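The 10 genes described here encode heat shock chaperones of the cytosol and of the mitochondrial matrix: Hspa1a, Hspa1b, Hspa8, Dnaja1, Dnajb1, Hsph1, Hsp90aa1, Hsp90ab1, Hspd1 and Hspe1. They were taken by the gene name that the array tables give, and all 10 were measured, by 14 of 44170 features and among 24171 named genes. Where a gene had several features, the brightest by its average log2 intensity stands for it. Spleen RNA of 4 mice labelled mir-155 knockout and 4 labelled wildtype was hybridised to 1-colour NimbleGen arrays, 1 spleen per array. The knockout animals are Mim1-5 and Mim1-6, labelled female, and Mim2-2 and Mim2-3, labelled male, and wild-type animals 1 and 3 are labelled female and 2 and 4 male. The labels name no strain, age, treatment or way in which the microRNA gene was deleted, so these cannot be set beside the values.

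Chaperones bind unfolded protein. In the cytosol a J-domain protein delivers the client to an HSP70, which folds it in cycles of ATP hydrolysis, an exchange factor such as the Hsph1 product releases the nucleotide, and many kinases and receptors are then passed to HSP90. In mitochondria the ring of HSP60, encoded by Hspd1, closes over its client with the lid encoded by Hspe1. Heat and other stress switch on many of these genes through the transcription factor HSF1, which binds repeats of a short element in their promoters, while Hspa8 and Hsp90ab1 are the constitutively expressed forms of their families. In spleen, activated and dividing lymphocytes make much protein and use these chaperones constantly.

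The mature sequence of the microRNA named in the knockout label is shown first, with its seed, bases 2 to 8, in capitals, since that label defines the comparison. The promoter windows that follow belong to the members whose values the results turn on, a pair of copies that read in opposite directions and a pair of neighbours that read together. Each is the 250 bases before the gene's start in the RefSeq table of build GRCm38.p6, 5′ to 3′ on the gene's strand, with capitals on each match to GAANNTTC or TTCNNGAA, the pair of inverted units that HSF1 elements are built from. Both motifs read the same on either strand, and their matches may overlap.
mmu-miR-155-5p: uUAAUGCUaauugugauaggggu
Hspa1a: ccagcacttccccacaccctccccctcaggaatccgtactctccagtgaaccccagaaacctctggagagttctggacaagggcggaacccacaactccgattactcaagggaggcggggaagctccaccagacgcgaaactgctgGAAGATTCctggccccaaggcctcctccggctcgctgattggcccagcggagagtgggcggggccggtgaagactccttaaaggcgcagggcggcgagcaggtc
Hspa1b: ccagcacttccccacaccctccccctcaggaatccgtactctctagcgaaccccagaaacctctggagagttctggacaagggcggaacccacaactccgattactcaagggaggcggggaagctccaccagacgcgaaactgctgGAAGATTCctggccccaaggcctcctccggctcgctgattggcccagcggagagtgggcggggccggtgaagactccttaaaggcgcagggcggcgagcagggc
Hspd1: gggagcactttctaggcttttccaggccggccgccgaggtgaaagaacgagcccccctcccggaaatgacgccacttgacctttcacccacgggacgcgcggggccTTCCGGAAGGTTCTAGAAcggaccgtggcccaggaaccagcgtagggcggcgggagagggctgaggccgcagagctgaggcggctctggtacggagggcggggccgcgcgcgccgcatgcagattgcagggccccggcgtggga
Hspe1: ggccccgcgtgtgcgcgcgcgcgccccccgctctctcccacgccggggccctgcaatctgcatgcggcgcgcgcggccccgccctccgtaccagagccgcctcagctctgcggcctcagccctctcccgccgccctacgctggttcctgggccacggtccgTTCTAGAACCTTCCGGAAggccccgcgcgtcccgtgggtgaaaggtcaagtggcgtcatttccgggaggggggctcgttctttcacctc
The Hspa1a window lies at chr17:34972157-34972406 and the Hspa1b window at chr17:34959239-34959488, both on the minus strand. They are identical at 247 of 250 positions, or 98.8%, and differ by C44T, T47C and T249G, written with the Hspa1a base first and counted from 1 at the 5′ end. Both hold 1 match, 104 bases before the start. The Hspd1 window, of the second of its 2 listed starts, is chr1:55087933-55088182 on the minus strand, and the Hspe1 window is chr1:55087898-55088147 on the plus strand. These genes are neighbours transcribed away from each other, and their windows overlap. The 18 bases in capitals are the same stretch, chr1:55088059-55088076, read from either strand. They hold 3 overlapping matches and begin 144 bases before that start of Hspd1 and 89 before that of Hspe1.

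RefSeq windows were found for 7 of the 10 genes, 12 windows in all, and none is shown for Hspa8, Hsp90aa1 and Hsp90ab1. Of the 12, 7 hold at least 1 match, against 12.8% of 32851 windows of the same length over all genes. The 7 are not independent. Both Hsph1 windows hold the same stretch, Hspd1 and Hspe1 share theirs, and the Hspa1a and Hspa1b windows are near-identical. The other Hspd1 and Dnaja1 windows hold no match. The longer motif of 3 units, GAANNTTCNNGAA or TTCNNGAANNTTC, occurs in the Hspe1 window and that of Hspd1 printed above, and in 0.466% of all windows. Hsph1 has 1 match 33 bases before the first of its starts and Dnaja1 has 1 match 124 bases before the first of its starts. The windows of Dnajb1 hold neither motif, which says only that these letters are not in these 250 bases. A match is a description of the letters and not a measured binding site.

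The arrays were close in overall signal, with median intensities of 112.1 to 119.1 on the linear scale. The 5000 random probes of each array, which measure background, stood at log2 4.94 to 5.24, and all 10 members lay above them on all 8 arrays. The arrays of Mim2-2 and Mim2-3 stood apart, with scores of 158.7 and 141.0 on a first principal component that held 36.7% of the variance, against -77.6 to -19.9 for the other 6 arrays. Results are therefore also given without them. BIC, the precursor transcript of miR-155, read 5.28 to 7.51 in knockout and 4.84 to 5.63 in wild-type spleens (limma, adjusted p = 0.521). The highest value was that of Mim1-5, and the other 7 lay between 4.84 and 5.63, near background. Whether the deletion covers its probes is not given, so it checks nothing. The Y-linked gene Ddx3y read 6.26 to 8.78 in animals labelled male and 6.82 to 8.83 in those labelled female, so it does not separate the labelled sexes. It did separate the genotypes, at 8.39 to 8.83 in knockout and 6.26 to 7.33 in wild-type spleens. Xist, the X inactivation transcript of females, read 8.35 to 11.10 in animals labelled male and 9.52 to 10.91 in those labelled female. Both genes go against the sex labels, and every fit with a sex term uses sex as labelled. Such a term accounts for sex only as far as these labels hold.

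Markers of other cells differed between the same arrays. Of 10 B cell markers, all above the random probes on every array, 6 were higher on each knockout than on each wild-type array. This held for 5.27% of named genes. The other way went 1 of the 10, Pax5, with a difference of -0.20. The mean log2 intensity of the 10 ran from 9.68 to 10.5 in knockout spleens, against 8.60 to 9.03 in wild-type spleens. T cell markers, 10 measured, ran from 8.35 to 9.19 in knockout spleens, against 7.59 to 8.12 in wild-type spleens. Erythroid markers, 8 of 10 measured, read 9.64, 9.75, 10.5 and 10.7 in Mim1-5, Mim1-6, Mim2-2 and Mim2-3, against 10.5 to 10.7 in wild-type spleens. Markers of mammary epithelium, 14 measured, ran from 8.17 to 10.6 in knockout spleens, lowest in Mim2-2 and Mim2-3, against 11.2 to 11.6 in wild-type spleens. In this list 0 to 2 of 14 genes did not exceed the random probes on single arrays. Exocrine pancreas markers, 9 of 10 measured, ran from 7.16 to 8.22 in knockout spleens, where 0 to 1 of 9 did not exceed the random probes, against 5.77 to 6.03 in wild-type spleens, where 2 to 3 did not. Csn2, the milk protein beta-casein, averaged 11.99 in knockout and 15.25 in wild-type spleens. Its lowest value was 8.22, in Mim2-2. The epithelial genes Krt18 and Epcam averaged 12.42 and 11.97 in knockout and 13.95 and 13.41 in wild-type spleens. Krt18 read 14.22, 14.40, 10.46 and 10.58 in Mim1-5, Mim1-6, Mim2-2 and Mim2-3, and Epcam read 13.27, 13.11, 10.26 and 11.24. Without Mim2-2 and Mim2-3, Csn2 differed by -2.47, Krt18 by 0.32 and Epcam by -0.28. The median difference of the mammary list was -1.83, and -0.24 without Mim2-2 and Mim2-3. Of the 14 mammary markers 13 read lower in the knockout and 1, Krt19, read higher. Krt19 averaged 7.39 in knockout and 5.24 in wild-type spleens, and was highest in Mim2-2 and Mim2-3, at 9.05 and 8.50. It exceeded the random probes on 7 of 8 arrays. The part of these cells in the differences below was not tested. In RNA of whole tissue, fewer cells of a type and less RNA per cell cannot be told apart. Mammary epithelium and exocrine pancreas are tissues other than spleen. Whether such tissue was in the samples was not tested, and this limits every difference below.

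Most of the chaperones read higher in the knockout, 7 of 10, where 13034 of 24171 named genes did. The others, Hspa1b, Hspa8 and Hsp90ab1, read lower. Of the 10, 5 were higher on every knockout array than on every wild-type array, namely Hsp90aa1, Hsph1, Hspd1, Hspe1 and Dnaja1, where this held for 5.27% of all named genes. Hsp90ab1 alone was lower on every knockout array, where this held for 2.56% of named genes. The differences were tested with limma, with labelled sex as a term and p-values adjusted over all 44170 features. None of the 10 passed at an adjusted p under 0.05, with values from 0.266 to 0.788, as none of the 24171 named genes did (0%). At an unadjusted p under 0.05, 5 members were higher, against 7.7% of named genes, and 2 were lower, against 6.62%. The median difference of the 10, knockout minus wild type, was 0.55 on the log2 scale, against 0.06 over all named genes.

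**Figure D1:**
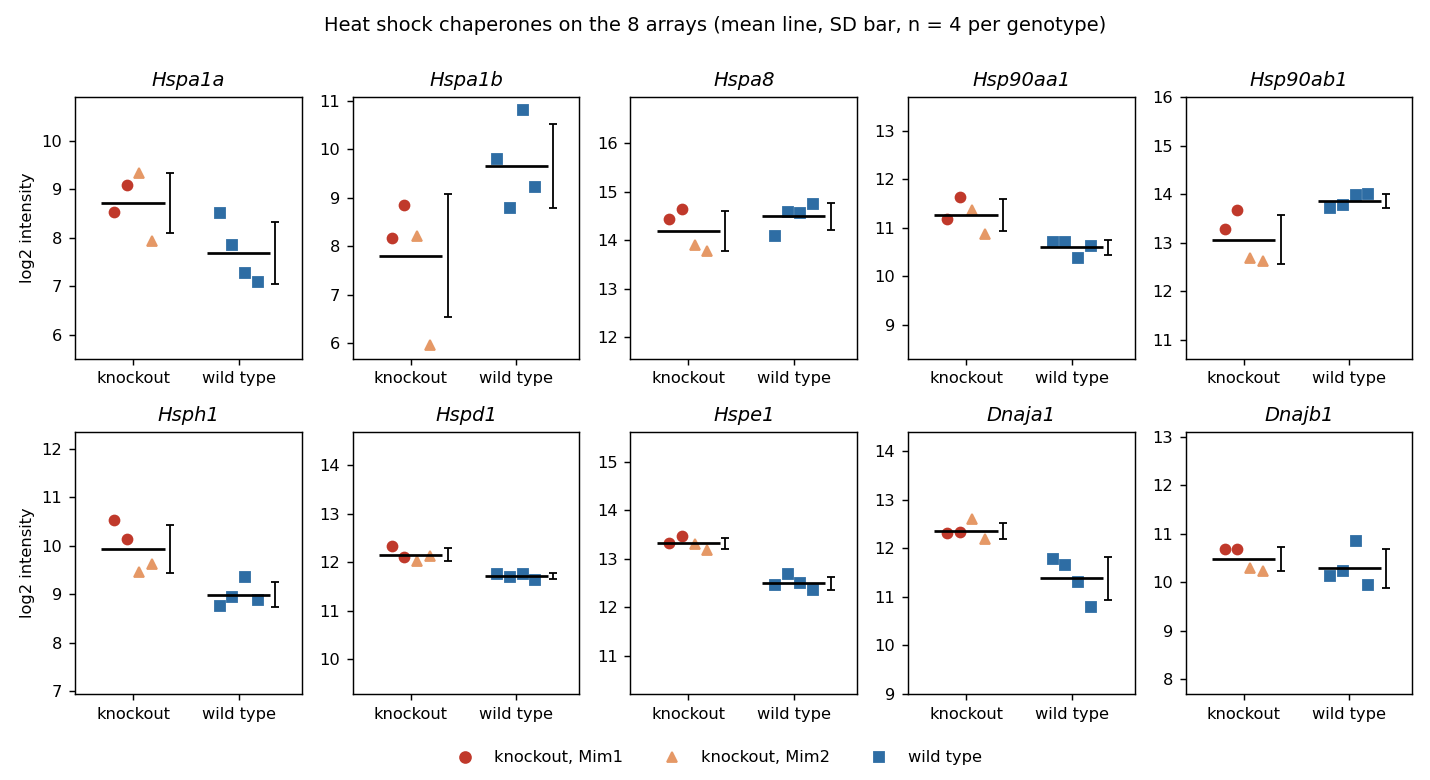
Log2 intensity (y axis, each panel spanning 5.4 units around its own middle) of the brightest feature of each of the 10 chaperone genes on the 4 knockout arrays (circles Mim1, triangles Mim2) and the 4 wild-type arrays (squares), with the mean as a line and the SD as a bar. The genotypes do not overlap for Hsp90aa1, Hsp90ab1, Hsph1, Hspd1, Hspe1 and Dnaja1.

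Hspa1a and Hspa1b encode near-identical inducible HSP70 proteins, and their features read in opposite directions. The Hspa1a feature is on chromosome 17 from 35106137 to 35109069 and the Hspa1b feature on the same chromosome from 35094016 to 35095954, in build MM9, the build of all feature positions below. Hspa1a had log2 intensities of 8.52, 9.09, 9.33 and 7.93 in Mim1-5, Mim1-6, Mim2-2 and Mim2-3, against 8.50, 7.85, 7.27 and 7.09 in wild-type animals 1 to 4. All knockout arrays but one lay above all wild-type arrays, and Mim2-3 lay within their range. The difference was 1.04 ± 0.43 (SE), 2.06-fold higher in the knockout (limma, adjusted p = 0.340).

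Hspa1b had log2 intensities of 8.17, 8.87, 8.22 and 5.97 in Mim1-5, Mim1-6, Mim2-2 and Mim2-3, against 9.81, 8.80, 10.81 and 9.23 in wild-type animals 1 to 4. Mim1-6 lay just above wild-type animal 2, and the other 3 knockout arrays lay below all wild-type arrays. The difference was -1.85 ± 0.50 (SE), 3.61-fold lower in the knockout (limma, adjusted p = 0.266), and it had the smallest p of the 10. This gene also varied most within a genotype, by 2.90 among knockout and 2.01 among wild-type arrays. Leaving out Mim2-3 moved the difference to -1.39, and leaving out Mim2-2 moved it to -2.29.

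Whether the copies read alike was asked on each array by the gap in log2 intensity, Hspa1a minus Hspa1b. Intensities of different probes have no common scale, so only a change in the gap can be read. The gap was 0.35, 0.22, 1.11 and 1.96 in Mim1-5, Mim1-6, Mim2-2 and Mim2-3, against -1.31, -0.95, -3.54 and -2.14 in wild-type animals 1 to 4. Every knockout array lay above every wild-type array. It averaged 0.91 ± 0.80 (SD, n = 4) over knockout arrays and -1.98 ± 1.15 over wild-type arrays, a change of 2.89. This pair and the HSP90 pair were set side by side with their values known, so the gaps are descriptions with no test. Each gene has 1 feature of 3 probes, and how far these probes tell the copies apart is not known. The features of these copies did not agree in direction.

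**Figure D2:**
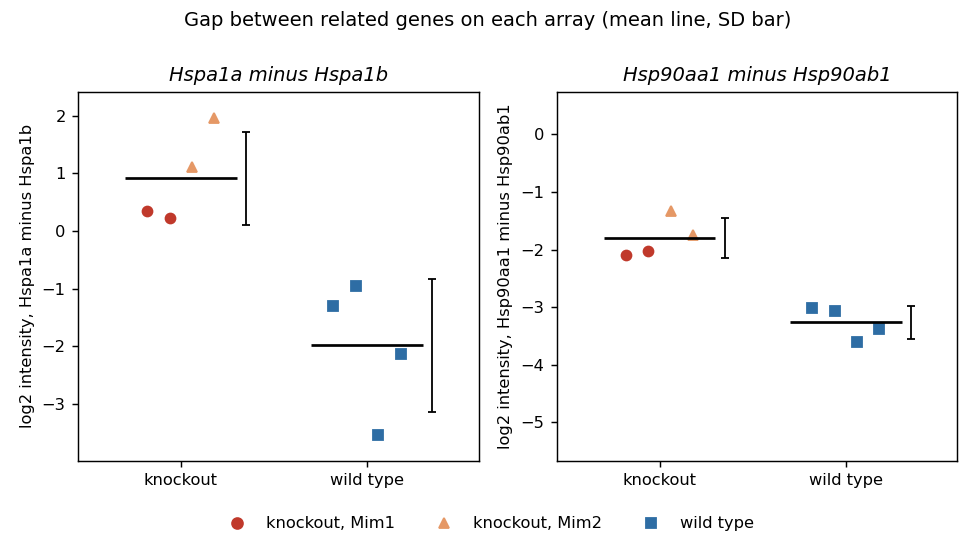
Gap in log2 intensity on each array between Hspa1a and Hspa1b (left) and between Hsp90aa1 and Hsp90ab1 (right), with the mean as a line and the SD as a bar, n = 4 per genotype. In both panels every knockout array (circles Mim1, triangles Mim2) lies above every wild-type array (squares), by 2.89 and 1.47 in the mean.

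Hspa8, on chromosome 9 from 40609368 to 40613283, encodes the constitutive HSP70 that also uncoats clathrin vesicles. Its brightest feature read 14.44, 14.65, 13.89 and 13.78 in Mim1-5, Mim1-6, Mim2-2 and Mim2-3, against 14.09, 14.59, 14.56 and 14.74 in wild-type animals 1 to 4. Only the Mim2 arrays were below all wild-type arrays, and the Mim1 arrays lay among them. The difference of -0.30 ± 0.32 (SE) did not pass (limma, adjusted p = 0.691), and it was 0.22 ± 0.37 without both Mim2 arrays. The dimmer feature of the gene, from 40609355 to 40613282, read 9.25, 8.13, 8.95 and 9.19 in the same knockout animals, against 7.78, 8.20, 8.65 and 7.90 in wild-type animals 1 to 4. It differed by 0.75 ± 0.36, the other way from the bright feature, so the direction for this gene depends on the feature.

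The J-domain proteins of the cytosol stimulate the ATPase of HSP70. Dnaja1, on chromosome 4 from 40669589 to 40680133, had log2 intensities of 12.30, 12.33, 12.59 and 12.19 in Mim1-5, Mim1-6, Mim2-2 and Mim2-3, against 11.77, 11.65, 11.30 and 10.79 in wild-type animals 1 to 4. All knockout arrays lay above all wild-type arrays, and the spread was wider in the wild type, with means of 12.35 ± 0.17 (SD, n = 4) for knockout and 11.38 ± 0.44 for wild-type arrays. The difference was 0.98 ± 0.31 (SE), 1.97-fold higher (limma, adjusted p = 0.288). Dnajb1, the HSP40 whose gene is a classical HSF1 target, lies on chromosome 8 from 86132451 to 86135395. It read 10.69, 10.69, 10.30 and 10.22 in Mim1-5, Mim1-6, Mim2-2 and Mim2-3, against 10.12, 10.22, 10.85 and 9.94 in wild-type animals 1 to 4. All knockout values lay within the wild-type range, and the difference was 0.19 ± 0.28 (limma, adjusted p = 0.788).

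Hsph1 encodes HSP110, the exchange factor that releases ADP from HSP70. Its brightest feature, on chromosome 5 from 150419417 to 150438765, read 10.52, 10.14, 9.45 and 9.62 in Mim1-5, Mim1-6, Mim2-2 and Mim2-3, against 8.76, 8.95, 9.35 and 8.87 in wild-type animals 1 to 4. The knockout arrays all lay above the wild-type arrays, the Mim1 pair by the wider margin. The difference was 0.95 ± 0.30 (SE), 1.93-fold higher (limma, adjusted p = 0.285), and 1.27 ± 0.39 without both Mim2 arrays. The other features of Hsph1 were dim. One exceeded the random probes on 2 of 4 knockout and 2 of 4 wild-type arrays, and the other on 3 of 4 in each genotype, so their differences of 0.58 and -0.19 have no exact size.

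The cytosolic HSP90 genes also parted. Hsp90aa1, the stress-inducible form, on chromosome 12 from 111929245 to 111933982, had log2 intensities of 11.18, 11.64, 11.36 and 10.87 in Mim1-5, Mim1-6, Mim2-2 and Mim2-3, against 10.70, 10.71, 10.37 and 10.62 in wild-type animals 1 to 4. Every knockout array was above every wild-type array. The difference was 0.66 ± 0.29 (SE), 1.58-fold higher (limma, adjusted p = 0.357). Hsp90ab1, the constitutive form, on chromosome 17 from 45704726 to 45710204, read 13.27, 13.66, 12.68 and 12.62 in Mim1-5, Mim1-6, Mim2-2 and Mim2-3, against 13.71, 13.78, 13.97 and 14.00 in wild-type animals 1 to 4. Every knockout array was below every wild-type array, Mim1-6 by a narrow margin and the Mim2 arrays by the widest margin. The difference was -0.81 ± 0.30, 1.75-fold lower (limma, adjusted p = 0.314), and -0.37 ± 0.37 without both Mim2 arrays. The mammary markers were lowest on the Mim2 arrays, and their part in this difference was not tested.

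The gap between these paralogs, Hsp90aa1 minus Hsp90ab1, was -2.10, -2.02, -1.32 and -1.75 in Mim1-5, Mim1-6, Mim2-2 and Mim2-3, against -3.01, -3.06, -3.60 and -3.38 in wild-type animals 1 to 4. The genotypes did not overlap, in the Mim1 or in the Mim2 arrays. The gap averaged -1.80 ± 0.35 (SD, n = 4) over knockout arrays and -3.26 ± 0.28 over wild-type arrays, a change of 1.47. As both genes were already apart in opposite directions, this gap had to separate the genotypes.

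The mitochondrial chaperonin genes both read higher and varied little. Whether the promoter stretch shown above, which their windows share, had a part was not tested. Hspd1, on chromosome 1 from 55134678 to 55144662, had log2 intensities of 12.35, 12.11, 12.04 and 12.13 in Mim1-5, Mim1-6, Mim2-2 and Mim2-3, against 11.77, 11.70, 11.76 and 11.63 in wild-type animals 1 to 4. The genotypes did not overlap, and the range was 0.31 among knockout and 0.14 among wild-type arrays. The difference was 0.44 ± 0.25 (SE), 1.36-fold higher (limma, adjusted p = 0.460). Hspe1, on the same chromosome from 55145232 to 55148151, read 13.32, 13.46, 13.30 and 13.18 in Mim1-5, Mim1-6, Mim2-2 and Mim2-3, against 12.45, 12.68, 12.50 and 12.36 in wild-type animals 1 to 4. Here too all knockout arrays lay above all wild-type arrays. The difference was 0.82 ± 0.26, 1.76-fold higher (limma, adjusted p = 0.287). The dimmer Hspe1 feature, from 55145180 to 55148151, read 12.98 to 13.14 on knockout arrays, against 12.09 to 12.37 on wild-type arrays, with a difference of 0.80 ± 0.26. The gap between the Hspe1 features stayed between 0.15 and 0.48 on the 8 arrays, while that between the Hspa8 features ran from 4.60 to 6.84.

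Within the knockout the members did not vary alike. The mean of the Mim2 arrays was below that of the Mim1 arrays by the most for Hspa1b, at -1.42, followed by Hsp90ab1 at -0.82, Hsph1 at -0.80 and Hspa8 at -0.70. For Hspa1b only Mim2-3, at 5.97, lay below both Mim1 arrays, and Mim2-2, at 8.22, lay between them. For Hspa1a, Hspd1, Hspe1 and Dnaja1 the Mim2 mean minus the Mim1 mean lay between -0.17 and 0.07. In Hspa1a the Mim2 arrays were the highest and the lowest of the knockout, at 9.33 in Mim2-2 and 7.93 in Mim2-3. Set alone against the 4 wild-type arrays, both Mim1 arrays were higher for 6 of the 10 members, where this held for 9.25% of named genes, and lower for Hsp90ab1, where it held for 7.16%. The sixth is Hspa1a, in which Mim1-5 read 8.52 and wild-type animal 1 read 8.50. Without both Mim2 arrays 3 members, Hspa1b, Hsph1 and Hspe1, had an unadjusted p under 0.05, against 6.18% of named genes (limma, adjusted p from 0.801 to 0.956 over the 10).

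The genotype difference was also set between the labelled sexes, which in the knockout coincide with the Mim1 and Mim2 names. In 9 of 10 members it had the same sign in both. The exception was Hspa8, with -0.82 ± 0.36 (SE) in animals labelled male and 0.22 ± 0.36 in those labelled female. The interaction of genotype and labelled sex had an unadjusted p under 0.05 in 0 of 10 members, against 13.6% of named genes, and adjusted p in limma from 0.425 to 0.990. With trend and robust variance 6225 of 44170 features were under 0.05 unadjusted, among them Hspa8 (limma, adjusted p = 0.100) and Hsp90ab1 (limma, adjusted p = 0.192). With 2 arrays in each combination, the interval around such a difference is wide, as for Hspa1b, where it was -0.12 ± 1.04 (SE).

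**Figure D3:**
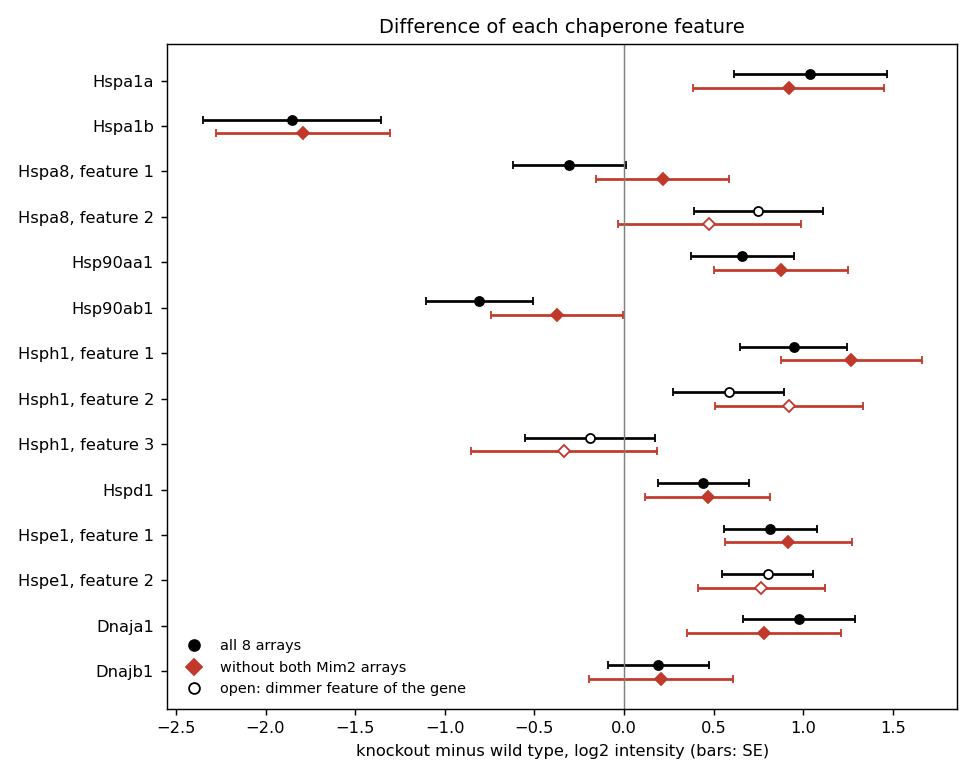
Knockout minus wild type in log2 intensity (x axis, bars the SE of the limma fit) for all 14 features of the 10 genes, over all 8 arrays (black circles) and without both Mim2 arrays (red diamonds). Open symbols are the dimmer features. Hspa1b and Hsp90ab1 lie left of 0 in both fits, and the brightest Hspa8 feature changes side.

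The other genes of the chaperone system, in lists written with earlier results of these data known, had smaller median differences or negative ones. No gene of any of these lists passed over all features in limma. Counts below are at an unadjusted p under 0.05, to be read against the 7.7% higher and 6.62% lower among named genes, and medians against 0.06. The heat shock factors, 3 of 4 measured, had 0 such genes. Their differences were 0.35 for Hsf4, -0.04 for Hsf1, the main stress factor, and 0.01 for Hsf2, which exceeded background on 3 of 8 arrays. Without both Mim2 arrays Hsf4 differed by 0.70, Hsf1 by 0.19 and Hsf2 by -0.34. Of 24 other HSP70, J-domain and exchange factor genes, 3 were higher and 0 lower, with a median of -0.15. Without both Mim2 arrays the median was 0.12, with 1 higher and 0 lower. The 3 were Hspa4l, an HSP110 relative, by 1.06 ± 0.38 (SE) and by 0.69 without both Mim2 arrays, the J-domain gene Dnajb5 by 0.71 ± 0.28, and Hspa14, an HSP70 that works at the ribosome, by 0.60 ± 0.26. Hspa14 read 10.50 to 10.95 on knockout arrays, against 10.13 to 10.17 on wild-type arrays, without overlap. Bag1, an exchange factor named here after its value was seen, was lower without overlap by 0.20.

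Of 18 HSP90 cochaperones 1 was higher and 1 lower, with a median of 0.11. Without both Mim2 arrays the median was 0.15, with 0 higher and 0 lower. Ahsa2, a relative of the HSP90 ATPase activator, read 11.09, 9.84, 11.06 and 10.39 in Mim1-5, Mim1-6, Mim2-2 and Mim2-3, against 9.54, 9.06, 9.30 and 9.01 in wild-type animals 1 to 4. The genotypes did not overlap, and the difference was 1.37 ± 0.36 (SE) (limma, adjusted p = 0.266), or 1.05 without both Mim2 arrays. Cdc37, which loads kinases onto HSP90, differed by -1.03 ± 0.37, and by -0.33 without both Mim2 arrays. Sgta differed by -0.62 ± 0.32, and by -0.09 without both Mim2 arrays. The 8 small heat shock protein genes had a median of 0.04 and 0 in either direction. Without both Mim2 arrays the median was -0.03, with 0 higher and 1 lower. In this list Hspb1, encoding HSP25, differed by 0.55 ± 0.30, or 0.27 without both Mim2 arrays, and did not overlap between genotypes. Hspb2 differed by 0.10, or 0.62 without both Mim2 arrays, and Hspb7 exceeded background on 1 of 8 arrays.

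The folding machines that take newly made protein, the TRiC ring and prefoldin, had a median of 0.05 over 14 genes and 0 in either direction. Pfdn4 differed by 0.55 ± 0.27 (SE) without overlap, Cct3 by 0.58 ± 0.35 and Vbp1 by -0.94 ± 0.49. Without both Mim2 arrays the median was 0.22, with 1 higher and 0 lower. Pfdn4, Cct3 and Vbp1 then differed by 0.27, 1.20 and 0.11, so Vbp1 turned in direction. The other mitochondrial chaperones and proteases, 15 genes, had a median of 0.00 and 0 in either direction. Timm44, which anchors the import motor, differed by 0.59 ± 0.30, Hscb by 0.60 ± 0.37 and Trap1, the mitochondrial HSP90, by -0.80 ± 0.48. Without both Mim2 arrays these differences were 0.21 for Timm44, -0.10 for Hscb and -0.04 for Trap1, and the median was 0.06.

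Chaperones of the endoplasmic reticulum had a median of -0.52 over 15 measured genes, 0 higher and 2 lower. Sil1, the exchange factor of the HSP70 of that compartment, differed by -1.01 ± 0.30 (SE), the collagen chaperone gene Serpinh1 by -0.82 ± 0.35 and Pdia3 by -0.88 ± 0.42. Without both Mim2 arrays Sil1 differed by -0.93, Serpinh1 by -1.01 and Pdia3 by -0.01. The median of this list was -0.04 without both Mim2 arrays. On those arrays the mammary markers were lowest and the B cell and T cell markers highest. The part of any of these cells in this change was not tested. Immediate early genes, which many kinds of stress switch on, had a median of -0.39 over 11 measured genes, 0 higher and 2 lower, and -0.12 without both Mim2 arrays. Junb differed by -1.66 ± 0.47, Ier3 by -1.80 ± 0.67 and Fosl2 by -1.10 ± 0.54, and without both Mim2 arrays by -0.59, -0.13 and -0.12. Their list mean was 9.11, 9.11, 8.29 and 8.01 in Mim1-5, Mim1-6, Mim2-2 and Mim2-3, against 9.52, 8.76, 8.95 and 9.05 in wild-type animals 1 to 4, so the Mim2 arrays were lowest.

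**Figure D4:**
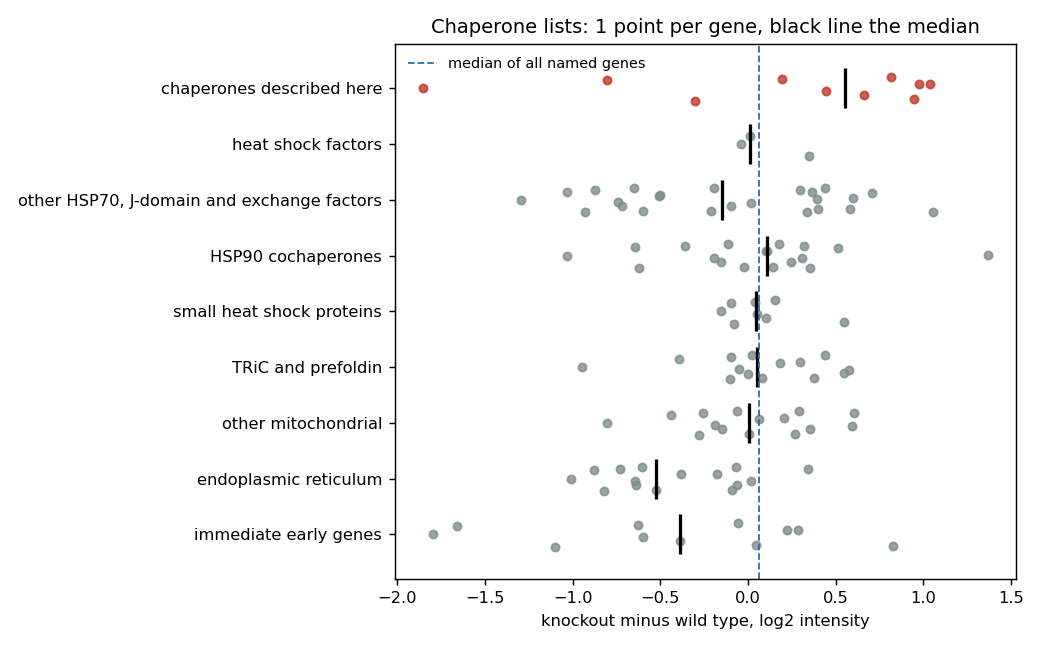
Knockout minus wild type in log2 intensity (x axis) for each gene of the 10 chaperones and of 8 further lists, with 1 point per gene, the list's median as a black line and the median of all named genes, 0.06, as a dashed line. The 10 chaperones have a median of 0.55, while the endoplasmic reticulum list has -0.52.

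The genes whose pattern over the 8 arrays was most like that of the members were found by the root mean square difference of log2 profiles, each centred on its own mean, among 15817 other genes above the random probes on every array. Nearest to the mean of Hspa1a and Hspa1b were Ezh2, Ddx28, Cd248, D10Wsu102e and Fn1, at 0.18 to 0.21. As these copies read in opposite directions, their mean describes neither. Nearest to the mean of the other 8 members, whose own range over the arrays was 0.72, were Rpl9, Bod1l, Hnrnpf, Bcap31 and Ythdc1, at 0.07 to 0.10. Their differences between knockout and wild type were 0.31 to 0.46, against 0.37 for that mean. That mean also mixes directions, as Hspa8 and Hsp90ab1 read lower and the other members in it read higher. Likeness to either mean is a description of 8 arrays and says nothing of shared function or control.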

How the data were processed

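Each array has 1 deposited table of linear intensity values, made with RMA per the submitters' processing notes. The sources used here do not give its version. Per the file headers, 44155 of 44170 features rest on 3 probes, with positions in build MM9. A standard error score, also deposited by the authors, entered no test. Background correction and normalization were thus done by the authors, so a low value can be background.

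Values were taken to log2 with no second normalization. The 5000 random probes gave the background level and stayed out of tests. Of 24203 Entrez numbers 21583 matched the GRCm38.p6 gene table, used for symbols of genes other than the members. Differences came from limma 3.58.1 (lmFit, eBayes) under R 4.3.3, with labelled sex as an additive term and Benjamini-Hochberg adjustment over 44170 features at 0.05. A second fit held the interaction. Alternatives changed the normalization, the sex term, the array weights, the variance model, the features per gene and the filter and floor for dim signals, or left out each array. The list values without Mim2 were added after seeing the data. An exact permutation test of the gaps between copies was also added then and is not used, because the pairs were taken up with their values known. The members and lists were chosen with earlier results of these data known. All members are named, with the 3 genes of smallest p in each further list of the chaperone system and of immediate early genes. The cell type markers that are named were not chosen by that rule. The number of arrays limits the precision.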

Additional observations from a re-analysis of the deposited data

How the results depend on the processing

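Over 19 alternatives for each of the 10 genes, 66 of 190 differences equalled that of the full fit, most of them fixed by the setting itself, such as another variance model or a mean over the features of a gene with 1. Of the 124 that moved, 122 kept their direction. None of the 190 passed at an adjusted p under 0.05, the lowest in limma being 0.0811 for Hspe1 with trend and robust variance. Both that turned in direction were of Hspa8, which differed by 0.22 with the mean over all features of a gene and by 0.22 without both Mim2 arrays, against -0.30. With trend and robust variance 16 of all features passed, 7 higher and 9 lower, and 578 passed for the interaction, 33 higher and 545 lower, with no member's brightest feature among either. All other alternatives gave 0 features, with 3773 to 7154 at an unadjusted p under 0.05 when 1 array was left out. Leaving out 1 array, between 4 and 6 members had an unadjusted p under 0.05, against 7 with all arrays, where the share of all features ran from 8.54% to 16.2% and was 13.9% with all arrays, and the count of 4 came without Mim2-2 and also without wild-type animal 4. Leaving out 1 array gave 0.74 to 1.31 for Hspa1a, -2.29 to -1.39 for Hspa1b, -0.97 to -0.68 for Hsp90ab1 and 0.04 to 0.34 for Dnajb1, lowest without wild-type animal 1 and highest without wild-type animal 3. For Hspa8 it gave -0.50 when wild-type animal 1 was dropped and -0.17 when animal 4 was. Hsph1 differed by 0.45 with the mean over its 3 features. No cause of these changes was tested. A slide block was not run, because no slide is named in the tables used here. No paired analysis was possible because the labels give the genotypes no shared replicate numbers.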
